A study of Mus musculus with 24 samples.

Results

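The MYC and MAX network was followed in B lymphomas that arose in mice without or with T cells. The rows of 10 named genes (Myc, Mycn, Max, Mga, Mnt, Mxd1, Mxd3, Mxd4, Mxi1 and Mlx) were taken from a table of 11140 genes. Of these, 9 had a row, and Mycn was not analysed here. All 9 passed the filter on low counts that left 11020 genes tested.

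Each library was made from B lymphoma cells purified from the spleen of a C57BL/6 mouse. The T cell deficient group held 11 lymphomas of the genotype Bcl6Tg/+CD3Epsilon-/-, and the T cell sufficient group 12 lymphomas of the genotype Bcl6Tg/+. All lymphomas thus carry the Bcl6 transgene, a germinal centre repressor gene. The deficient mice also lack CD3 epsilon, without which T cells do not develop. The sources used here do not state the promoter of the transgene or the age of the animals. The labels number the lymphomas but do not say that each came from another animal, so p-values measure the spread between these samples.

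MYC is a basic helix-loop-helix leucine zipper transcription factor that binds DNA at CACGTG elements, called E-boxes, as a dimer with MAX, and drives genes of ribosome assembly, nucleotide synthesis and growth. MXD1, MXI1, MXD3, MXD4, MNT and MGA also pair with MAX, and most of them recruit SIN3 and histone deacetylases to the same elements. MLX is a MAX-like protein that pairs with MondoA, the product of Mlxip, and with MNT, MXD1 and MXD4. In germinal centres, Myc is switched on in B cells selected with the help of T cells.

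Sequencing took 2 runs, with 5 deficient and 7 sufficient libraries in run 1, and 6 deficient and 5 sufficient libraries in run 2. Total counts were 11.8 to 28.1 M in deficient libraries and 7.58 to 30.6 M in sufficient libraries. Levels are given as CPM, counts scaled to a common library size by edgeR's trimmed mean of M values (TMM). The B cell markers Cd79a, Cd79b, Ms4a1, Cd22, Pax5 and Ebf1 were above 0 in every library. The deleted gene, Cd3e, averaged 2.47 CPM ± 1.73 (SD, n = 11) in deficient and 0.966 CPM ± 0.754 (SD, n = 12) in sufficient lymphomas. Which part of Cd3e is deleted is not known here, so its counts do not check the labels. Before any comparison, 3 libraries stood apart from the others. Sufficient 9, 10 and 11, all of run 2, held more than 10 CPM of both Xist and the Y-linked Ddx3y. Some calls and counts changed without them, and the main ones are named below.

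Mxd1 was the member that changed between the groups, and the promoters of 4 other members hold the element the network binds. Both are shown here as RefSeq windows of 250 bases before to 50 bases after the transcription start, on GRCm38.p6. Capitals mark CACGTG, which reads the same on both strands. The Mxd1 window (chr6:86669110-86669409, minus strand) holds no CACGTG. In the Max window (chr12:76962199-76962498, minus strand) the element begins 3 bases before the start. In the Mxd4 window (chr5:34187661-34187960, minus strand) it begins 219 bases before the start. In the Mnt window (chr11:74830674-74830973, plus strand) it begins 123 bases before the start. In the Mlx window (chr11:101087040-101087339, plus strand) it begins 40 bases before the start.
Mxd1: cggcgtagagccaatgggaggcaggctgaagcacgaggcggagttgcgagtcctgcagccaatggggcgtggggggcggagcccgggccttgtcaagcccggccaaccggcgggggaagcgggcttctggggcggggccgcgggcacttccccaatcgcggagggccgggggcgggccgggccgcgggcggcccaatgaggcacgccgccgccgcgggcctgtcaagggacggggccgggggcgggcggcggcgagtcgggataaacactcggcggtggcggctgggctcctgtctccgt
Max: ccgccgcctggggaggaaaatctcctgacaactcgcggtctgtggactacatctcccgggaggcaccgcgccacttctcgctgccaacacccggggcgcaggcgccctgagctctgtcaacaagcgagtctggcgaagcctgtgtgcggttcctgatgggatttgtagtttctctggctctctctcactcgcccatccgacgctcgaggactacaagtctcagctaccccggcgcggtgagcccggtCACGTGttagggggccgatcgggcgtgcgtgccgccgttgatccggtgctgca
Mxd4: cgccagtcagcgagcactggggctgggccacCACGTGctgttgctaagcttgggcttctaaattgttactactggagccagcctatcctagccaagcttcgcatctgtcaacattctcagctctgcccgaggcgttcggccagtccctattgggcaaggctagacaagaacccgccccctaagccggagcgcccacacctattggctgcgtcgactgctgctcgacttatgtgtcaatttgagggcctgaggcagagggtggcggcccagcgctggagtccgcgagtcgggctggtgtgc
Mnt: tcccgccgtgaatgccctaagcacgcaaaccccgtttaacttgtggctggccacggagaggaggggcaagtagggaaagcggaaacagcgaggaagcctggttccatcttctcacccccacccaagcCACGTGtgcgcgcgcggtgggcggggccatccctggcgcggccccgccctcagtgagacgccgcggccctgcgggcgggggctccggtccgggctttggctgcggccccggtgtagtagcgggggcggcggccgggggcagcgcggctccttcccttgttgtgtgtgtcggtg
Mlx: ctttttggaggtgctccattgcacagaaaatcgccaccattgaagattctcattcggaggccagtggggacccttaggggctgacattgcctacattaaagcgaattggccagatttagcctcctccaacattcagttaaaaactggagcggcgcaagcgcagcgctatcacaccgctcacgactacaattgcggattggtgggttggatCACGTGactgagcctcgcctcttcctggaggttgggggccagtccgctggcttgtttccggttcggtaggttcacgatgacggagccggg

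Windows of 9 of the 10 listed genes were found, 11 windows in all, because Mxi1 has 3. The gene without a window was Myc, so its promoter was not read for CACGTG. The windows of Mycn, Mxd3, Mxi1 and Mga hold no CACGTG either. The element stood in 7.15% of the 32851 windows of all genes and in 10.3% of the 10779 windows of the genes tested here. These matches describe the letters and are not binding sites.

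Between the groups, 1 of the 9 measured members fell in T cell deficient lymphomas, 0 rose and 8 did not pass the test. Over all 11020 genes, 22.2% passed (edgeR quasi-likelihood fit that includes run, Benjamini-Hochberg adjusted p under 0.05), with 1163 higher (10.6%) and 1285 lower (11.7%) in deficient lymphomas. Scaled by total counts alone, 1608 were higher and 1027 lower, and Mxd1 stayed the only member called. The median log2 fold change, deficient over sufficient, was -0.14 over the members and -0.01 over all genes tested. Without adjustment, 2 members (Mxd1 and Mxd4) and 36.1% of all genes had a p under 0.05. For 0 members did the groups not overlap at all, as for 0.0907% of genes higher and 0.0726% of genes lower in deficient lymphomas.

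Myc lay on chromosome 15 at 61985391 to 61990374 (GRCm38, plus strand). Its level was 108 CPM at the lowest, 251 CPM at the median and 283 CPM at the highest in the 11 deficient lymphomas. In the 12 sufficient lymphomas it was 140, 251 and 278 CPM. The groups overlapped over nearly their whole range. The means were 234 CPM ± 53.1 (SD, n = 11) in deficient and 233 CPM ± 44.4 (SD, n = 12) in sufficient lymphomas. This is a log2 fold change of 0.01 ± 0.14 SE, with a 95% interval from -0.29 to 0.31 (edgeR adjusted p = 0.968). The value was 0.18 ± 0.18 SE in run 1 alone and -0.18 ± 0.21 SE in run 2 alone (edgeR adjusted p = 0.634 and 0.602), and the 2 runs did not differ past the test (interaction -0.37 ± 0.28 SE, edgeR adjusted p = 0.819). In the authors' deposited table the log2 fold change of Myc was -0.0041, with an adjusted p of 0.987. The lowest Myc level of all was in deficient 6, at 108 CPM. The next lowest were 2 sufficient lymphomas of run 1, number 7 at 140 CPM and number 4 at 153 CPM.

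Max, the partner that MYC and its antagonists share, lay on chromosome 12 at 76937269 to 76962201 (minus strand). It was 107 CPM at the lowest, 126 CPM at the median and 176 CPM at the highest in deficient lymphomas, against 123, 143 and 205 CPM in sufficient ones. The deficient level was below all sufficient libraries in 4 of 11 lymphomas. Its log2 fold change of -0.16 ± 0.09 SE, with a 95% interval from -0.34 to 0.02, did not pass the test (edgeR adjusted p = 0.200). Max was the most even member, with a coefficient of variation (SD over mean) of 15.6% in deficient and 16.0% in sufficient lymphomas.

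**Figure D1:**
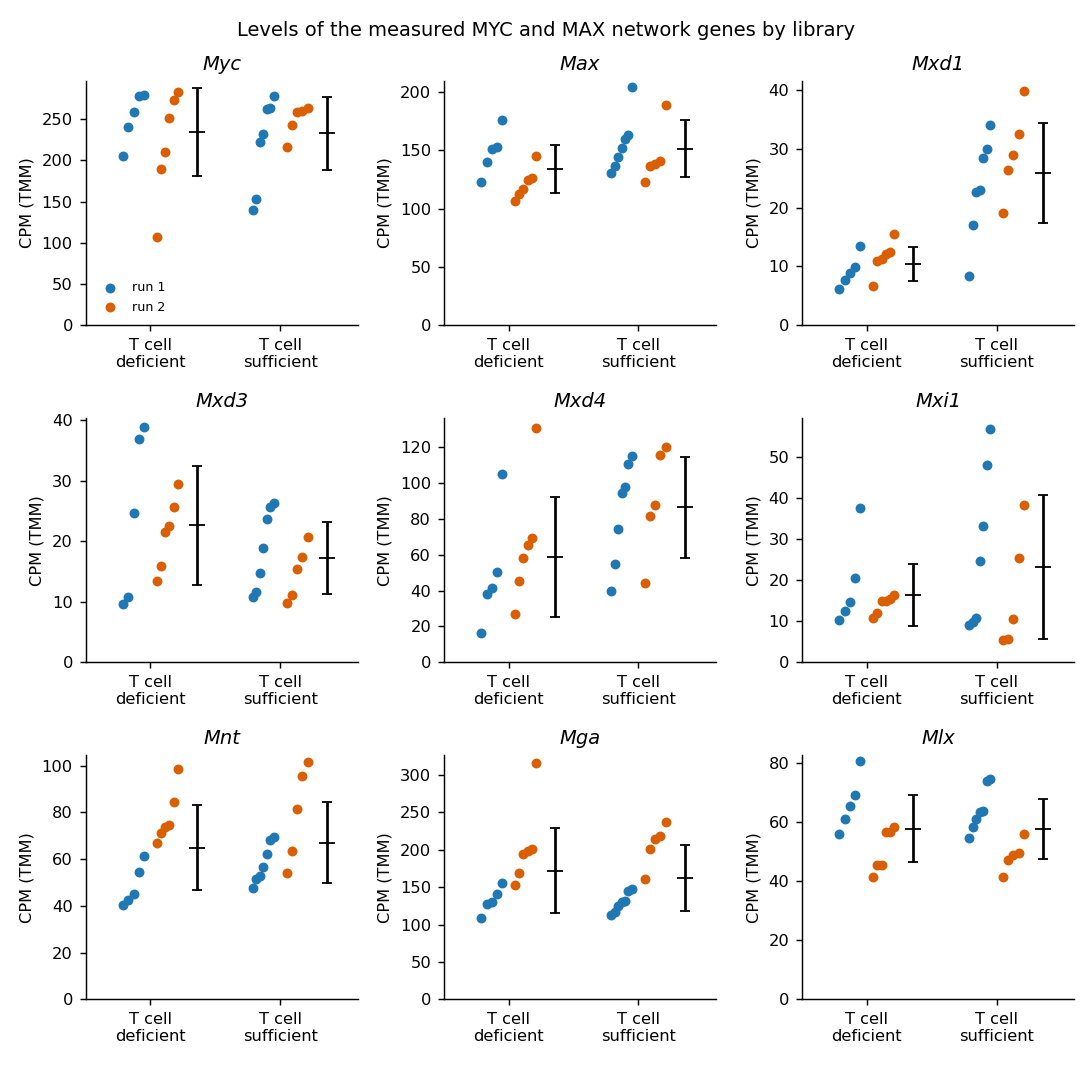
Level of each measured member in CPM on a linear axis from 0, with 1 point per library ordered by value within each run, T cell deficient left and T cell sufficient right. Bars give the mean ± SD of the group (n = 11 and 12). Mxd1 is the panel in which deficient libraries lie below 11 of the 12 sufficient ones, and in Mnt, Mga and Mlx the 2 runs are shifted against each other but overlap.

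Mxd1 encodes a MAX partner that represses transcription through SIN3 and is known to rise as cells leave the cycle and differentiate. The gene lay on chromosome 6 at 86647042 to 86669161 (minus strand). Its level in deficient lymphomas was 6.19 CPM at the lowest, 10.9 CPM at the median and 15.4 CPM at the highest. In sufficient lymphomas it was 8.28, 27.5 and 39.9 CPM. All 11 deficient lymphomas lay below the sufficient median, and 11 of the 12 sufficient lymphomas lay above every deficient one. The exception was sufficient 5, at 8.28 CPM, and 3 deficient lymphomas lay below it. The means were 10.4 CPM ± 2.90 (SD, n = 11) in deficient and 25.9 CPM ± 8.49 (SD, n = 12) in sufficient lymphomas. Mxd1 was thus 2.55-fold lower in deficient lymphomas, a log2 fold change of -1.35 ± 0.20 SE with a 95% interval from -1.76 to -0.94 (edgeR adjusted p = 0.000217). It ranked 36 of 11020 genes by p. The counts behind these levels ran from 81 to 367 in deficient and from 167 to 829 in sufficient libraries. In bulk RNA, fewer cells with Mxd1 transcripts and less Mxd1 RNA per cell cannot be told apart.

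The lower Mxd1 level was present in both runs. In run 1 it averaged 9.21 CPM ± 2.72 (SD, n = 5) in deficient and 23.4 CPM ± 8.69 (SD, n = 7) in sufficient lymphomas, and 6 of the 7 sufficient ones lay above every deficient one. The log2 fold change there was -1.35 ± 0.32 SE and did not pass (edgeR adjusted p = 0.105), in a run in which 0 of 11064 genes passed and 1832 had an unadjusted p under 0.05. In that run the groups did not overlap for 1.81% of all genes. In run 2 it was 6.63, 11.7 and 15.4 CPM in 6 deficient lymphomas, against 19.1, 29.0 and 39.9 CPM in 5 sufficient ones. There every deficient lymphoma lay below every sufficient one, and the groups did not overlap, in either direction, for 8.4% of all genes. The log2 fold change was -1.35 ± 0.23 SE (edgeR adjusted p = 0.0074), in a run in which 1 member and 12.3% of all genes passed, 5.69% higher and 6.61% lower in deficient lymphomas. The 2 runs did not differ past the test (interaction -0.02 ± 0.40 SE, edgeR adjusted p = 0.997). Leaving out each library in turn gave log2 fold changes from -1.42 to -1.28, with an edgeR adjusted p of at most 0.000596. Without sufficient 9, 10 and 11 it was -1.22 (edgeR adjusted p = 0.0035). In the authors' deposited table it was -1.24, with an adjusted p of 0.000872.

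Some genes listed as markers of other cells were lower in deficient lymphomas, as were Mxd1 and 11.7% of all genes. Whether the lymphoma cells themselves express them was not tested, so their levels do not count other cells. The summed level of 7 measured monocyte and macrophage markers of 8 listed was 240 to 710 CPM in deficient and 506 to 2322 CPM in sufficient lymphomas, and 3 of the 7 (Mpeg1, Itgam and Lyz2) were lower in deficient ones by the same test. None of the 7 was at 0 in any library. Mpeg1 alone averaged 293 CPM in deficient and 514 CPM in sufficient lymphomas, against mean sums of 438 and 908 CPM. The summed level of 7 measured T cell markers of 10 listed was 29.6 to 358 CPM in deficient and 94.9 to 404 CPM in sufficient lymphomas. Of these, Cd2 was lower in deficient lymphomas and 6 did not pass. Cd2 alone averaged 75.1 CPM in deficient and 189 CPM in sufficient lymphomas, against mean sums of 105 and 229 CPM. The median log2 fold change of the 7 was 0.22, as Cd3e (1.07), Thy1 (0.59), Cd4 (0.25) and Cd8b1 (0.22) had values above 0, and Cd3g (-1.84) and Cd5 (-1.36) below 0. Cd3e was at 0 in 0 deficient and 2 sufficient libraries. Of the 6 B cell markers named above, 3 (Cd79a, Cd22 and Cd79b) were also lower in deficient lymphomas. The part of other cells in the Mxd1 difference was not tested.

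**Figure D2:**
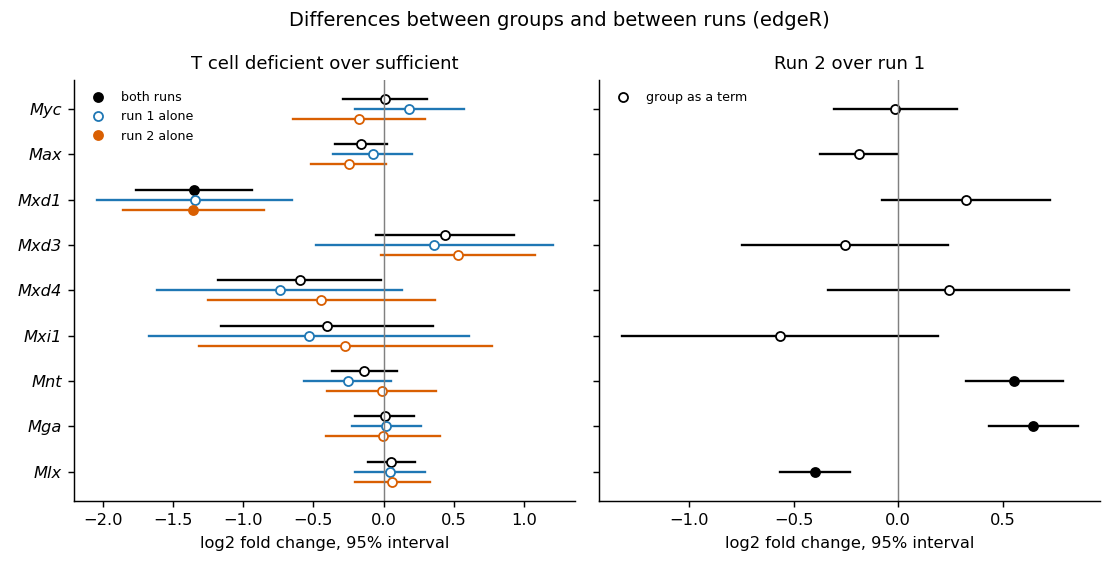
Log2 fold change of each measured member with its 95% interval from edgeR, deficient over sufficient on the left (both runs with run as a term, and each run alone) and run 2 over run 1 with group as a term on the right. Filled points have an adjusted p under 0.05, which on the left holds for Mxd1 in both runs together (-1.35) and in run 2 alone, and on the right for Mnt, Mga and Mlx.

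The other 3 MXD genes did not pass the test. Mxd4, a MAX partner found in many resting tissues, lay on chromosome 5 at 34173883 to 34187720 (minus strand). It was 16.3, 50.4 and 130 CPM at the lowest, median and highest in deficient lymphomas, against 39.9, 91.1 and 120 CPM in sufficient ones. Of the 11 deficient lymphomas, 9 lay below the sufficient median, and deficient 6 and 11, at 130 and 105 CPM, lay above it. The log2 fold change was -0.60 ± 0.28 SE, with a 95% interval from -1.18 to -0.02 (edgeR adjusted p = 0.126). It passed only when 1 of those libraries was left out, at -0.74 without deficient 6 and -0.80 without deficient 11 (edgeR adjusted p = 0.046 and 0.0466), which makes 2 members called. The authors' deposited table gives -0.72 with an adjusted p of 0.0674.

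Mxi1, a MAX partner known as a repressor of MYC target genes, lay on chromosome 19 at 53310518 to 53375810 (plus strand). It was 10.2, 14.9 and 37.6 CPM at the lowest, median and highest in deficient lymphomas, against 5.51, 17.7 and 56.9 CPM in sufficient ones. The sufficient lymphomas lay on both sides of the deficient ones, with 4 below all deficient and 3 above all deficient libraries. Its coefficient of variation was 46.3% in deficient and 75.9% in sufficient lymphomas, the highest of the members in sufficient ones. At -0.40 ± 0.36 SE on the log2 scale the difference did not pass (edgeR adjusted p = 0.439). It was 0.017 without sufficient 9, 10 and 11 and -0.06 in the authors' deposited table.

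Mxd3, the MXD gene known for expression in dividing cells, lay on chromosome 13 at 55325168 to 55329823 (minus strand). It was 9.56, 22.5 and 38.9 CPM at the lowest, median and highest in deficient lymphomas, against 9.74, 16.5 and 26.4 CPM in sufficient ones. Of the 11 deficient lymphomas, 7 lay above the sufficient median and 3 above all sufficient libraries. Its log2 fold change of 0.44 ± 0.24 SE, with a 95% interval from -0.05 to 0.93, did not pass (edgeR adjusted p = 0.185).

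Mnt, a broadly expressed MAX partner that recruits SIN3, lay on chromosome 11 at 74830920 to 74845725 (plus strand). It was 40.5, 67.0 and 98.7 CPM at the lowest, median and highest in deficient lymphomas, against 47.7, 62.9 and 101 CPM in sufficient ones (log2 fold change -0.14 ± 0.11 SE, edgeR adjusted p = 0.384). Mga, a large MAX partner with a T-box domain that sits in the polycomb complex PRC1.6, lay on chromosome 2 at 119897228 to 119969581 (plus strand). It was 109, 156 and 316 CPM in deficient lymphomas, against 113, 147 and 238 CPM in sufficient ones (log2 fold change 0.01 ± 0.10 SE, 95% interval from -0.20 to 0.22, edgeR adjusted p = 0.965). Mlx lay on chromosome 11 at 101087277 to 101092207 (plus strand). It was 41.6, 56.6 and 80.7 CPM in deficient lymphomas, against 41.6, 57.2 and 74.7 CPM in sufficient ones (log2 fold change 0.05 ± 0.08 SE, edgeR adjusted p = 0.658). For these 3 genes the groups overlapped over most of their range. The strand setting of the counting is not known, and 19.3% of the merged exon bases of Mlx overlap Psmc3ip on the other strand. Such overlaps cover 6.06% of Mxd4, 4.43% of Mxd3 and 2.84% of Mxi1.

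The same 3 genes differed between the runs. With group as a term, 36.3% of all 11020 genes passed for run 2 over run 1 (18.6% higher and 17.7% lower in run 2). Of the 9 members, 3 did. Without sufficient 9, 10 and 11, 4 members passed (2 higher and 2 lower in run 2). Over all genes 3310 passed then, in place of 3999. Mga was 152, 201 and 316 CPM at the lowest, median and highest in run 2, against 109, 130 and 156 CPM in run 1. Of 11 run 2 libraries, 10 lay above every run 1 library. The runs did not overlap at all for 4.83% of all genes and for 0 members. For Mga the log2 fold change was 0.65 ± 0.10 SE (edgeR adjusted p = 3.15e-05). Mnt was 54.3, 74.8 and 101 CPM in run 2, against 40.5, 53.7 and 69.4 CPM in run 1 (0.56 ± 0.11 SE, edgeR adjusted p = 0.000447). Mlx was 41.6, 48.7 and 58.4 CPM in run 2, against 54.6, 63.7 and 80.7 CPM in run 1 (-0.40 ± 0.08 SE, edgeR adjusted p = 0.000521). Of the 11 run 2 libraries, 8 lay above every run 1 library for Mnt, and 7 lay below every one for Mlx. Mlxip, the MondoA gene, was higher in run 2 as well (0.64 ± 0.15 SE, edgeR adjusted p = 0.0023), and did not pass between the groups (0.0045 ± 0.15 SE, edgeR adjusted p = 0.987). Myc and Max did not pass for run (-0.01 and -0.19, edgeR adjusted p = 0.953 and 0.101). For 0 of the 9 members, and 0 of all genes, did the group difference itself differ between the runs past the test (edgeR interaction). Without adjustment 0 members and 6.56% of all genes had a p under 0.05, and limma-voom also called 0 members.

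The difference between runs moved with gene length. Across 10530 genes with a length in the annotation, the log2 fold change of run 2 over run 1 had a Spearman correlation of 0.36 with the merged exon length, against 0.09 for the group difference. Genes are not independent replicates, so this describes the tables. With the genes in 4 equal classes from short to long, the class medians were -0.27, -0.04, 0.10 and 0.25. Mga is among the longest, with 15.3 kb of merged exons, and the 797 genes nearest to it in length had a median of 0.42. Mlx is short, at 2.00 kb, and the 1051 genes nearest to it had a median of -0.23. Mnt has 4.63 kb, and the 1052 genes nearest to it had a median of 0.03. The part of length in the members' run differences was not tested.

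**Figure D3:**
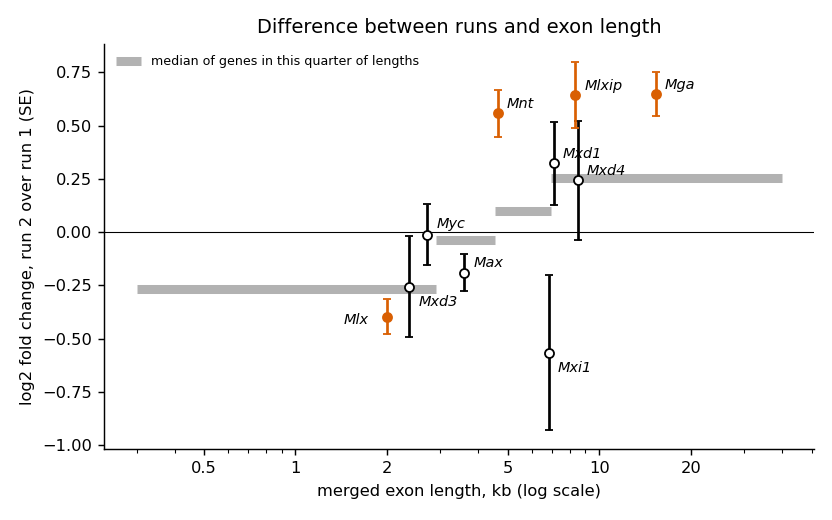
Log2 fold change of run 2 over run 1 (± SE) against merged exon length in kb on a log axis, for the 9 measured members and Mlxip. Filled orange points have an adjusted p under 0.05, and grey bars give the median of all genes in each of 4 length classes (the first and last bars are shortened at the ends), from -0.27 in the shortest to 0.25 in the longest.

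Per kb of merged exons, the members ranged over more than an order of magnitude. The mean over the 23 libraries was 86.0 CPM per kb for Myc, 39.8 for Max, 28.9 for Mlx, 14.3 for Mnt, 10.9 for Mga, 8.62 for Mxd4, 8.37 for Mxd3, 2.92 for Mxi1 and 2.61 for Mxd1. Merged exons join all annotated transcripts, so the level of a gene with several transcript forms is understated. Myc was above Max, Max above Mlx, and Mnt above Mga in all 23 libraries, and Mlx was above Mnt in 22. Mxd3 was above Mxi1 in 20 libraries. The order of 3 neighbouring pairs was not steady: Mga was above Mxd4 in 16, Mxd4 above Mxd3 in 13 and Mxi1 above Mxd1 in 14 of the 23 libraries.

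**Figure D4:**
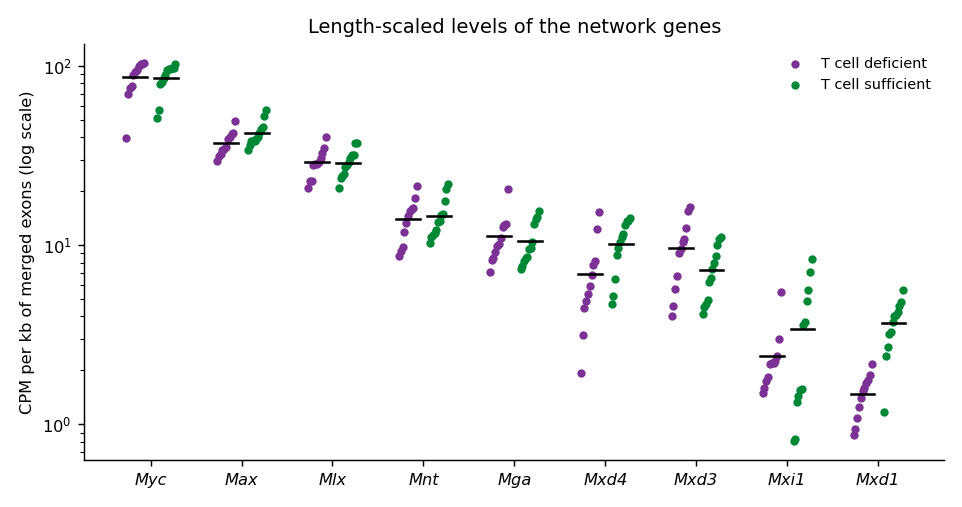
Level of each measured member in CPM per kb of merged exons on a log axis, in order of the mean over all libraries, with 1 point per library and a line at the group mean (T cell deficient left, T cell sufficient right of each pair). Myc is highest at a mean of 86.0 and Mxd1 lowest at 2.61, and the deficient and sufficient points of Mxd1 are the most clearly separated.

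Myc varied among lymphomas of each group, so the other 8 members were fitted on the log2 level of Myc with group and run as terms. None of the 8 passed, nor did they with DESeq2 or limma-voom, and 0.0635% of 11019 genes did (7 genes, all lower with more Myc). Neither the number nor the direction of these calls was steady: DESeq2 called 157 genes higher and 94 lower, limma-voom 36 higher and 112 lower, and edgeR without sufficient 9, 10 and 11 called 25 higher and 33 lower. Without adjustment, 3 members and 13.2% of all genes had a p under 0.05. The slopes of these 3 were negative, in log2 units per log2 unit of Myc. Mxd4 had a slope of -0.79 ± 0.33 SE, Mxd1 of -0.53 ± 0.25 SE and Mga of -0.31 ± 0.13 SE (edgeR adjusted p = 0.298, 0.370 and 0.271). Deficient 6, the lymphoma with the lowest Myc, had the highest Mga and the highest Mxd4 of all libraries, at 316 and 130 CPM. Without it the slope of Mga was -0.0039 and that of Mxd4 -0.47, and 0 genes were called. Without it the slope of Mxd1 was -0.66. Max had a slope of 0.17 ± 0.12 SE and Mnt of -0.28 ± 0.14 SE, and neither passed (edgeR adjusted p = 0.616 and 0.425). Of 40 genes known to be induced by MYC, 0 passed for the level of Myc. The median of their slopes was 0.46, against -0.0043 over all genes. How this median depends on single libraries was not tested.

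**Figure D5:**
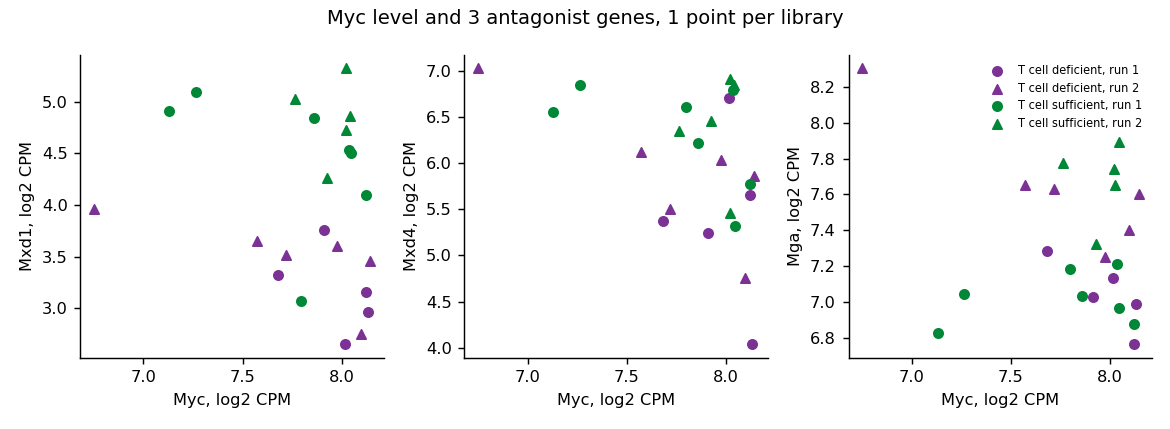
Log2 CPM of Mxd1, Mxd4 and Mga against log2 CPM of Myc, with 1 point per library, coloured by group and shaped by run. The deficient run 2 library at the far left is deficient 6 (Myc 6.75), which is also the top point for Mxd4 and Mga.

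The genes whose levels went most closely with Myc and with Mxd1 were ranked by Spearman correlation over the 23 libraries, after each group and run was centred on its mean, among 8886 genes. This is a description of likeness with no test. With Myc these were Pus7l (0.77), Ltv1 (0.76), Nsun5 (0.73), Mrpl13 (0.73) and Ddx23 (0.73), and at the other end Git2 (-0.77), Wipi2 (-0.75) and Slc41a2 (-0.71). Ltv1 serves assembly of the small ribosomal subunit, Nsun5 methylates ribosomal RNA and Mrpl13 is a mitochondrial ribosomal protein. With Mxd1 these were Mbp (0.82), Mlxip (0.77), Bcl2l11 (0.77), Gpr108 (0.75) and Egln1 (0.73), and at the other end Hdac2 (-0.76), Med31 (-0.76) and Asnsd1 (-0.74). Mlxip encodes MondoA, Bcl2l11 the death protein BIM and Hdac2 a histone deacetylase of the SIN3 complex. Of the members, Mxd1 was least like Myc (-0.52), followed by Mga (-0.43) and Mxd4 (-0.41), and Max was most like it (0.30).

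The proteins that work with MYC were compared between the groups in lists. Over all genes, 10.6% rose and 11.7% fell in deficient lymphomas. Of 19 cofactors of MYC, 2 rose, a share close to that of all genes, 0 fell and 17 did not pass. Their median log2 fold change was 0.10 against -0.01 over all genes. The 2 were Aurka, a mitotic kinase that stabilises MYCN protein (0.75 ± 0.17 SE, edgeR adjusted p = 0.0049), and Hcfc1, a host cell factor that binds MYC (0.24 ± 0.06 SE, edgeR adjusted p = 0.00698). The acetyltransferase gene Ep300 (-0.36, edgeR adjusted p = 0.0635) and the remodeller gene Ep400 (0.19, edgeR adjusted p = 0.0697) were next by p. Of 13 measured genes of 15 listed for MYC protein turnover, 3 rose, 0 fell and 10 did not pass (median 0.17). Usp28, a deubiquitinase that counters degradation of MYC, averaged 65.8 CPM ± 19.9 (SD, n = 11) in deficient and 32.7 CPM ± 9.57 (SD, n = 12) in sufficient lymphomas (log2 fold change 0.95 ± 0.17 SE, edgeR adjusted p = 0.00101). Over 12 alternative settings, among them each run alone, its log2 fold change ran from 0.41 to 1.51. Usp28 did not pass in 1 of them. With single libraries left out the value was 0.87 to 1.05. The ubiquitin ligase genes Skp2 and Huwe1 rose by 0.73 ± 0.20 SE and 0.50 ± 0.17 SE (edgeR adjusted p = 0.0114 and 0.0409). Huwe1 no longer passed without the run term, without sufficient 9, 10 and 11 (edgeR adjusted p = 0.0625), or without any 1 of 12 libraries (lowest log2 fold change 0.39).

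The corepressors that MXD proteins and MNT recruit were also compared, beside the same shares of all genes (10.6% higher and 11.7% lower). Of 19 SIN3 and histone deacetylase genes, 4 rose in deficient lymphomas, 0 fell and 15 did not pass (median 0.16). Sap30, a SIN3 subunit, averaged 34.7 CPM ± 7.21 (SD, n = 11) in deficient and 20.4 CPM ± 7.12 (SD, n = 12) in sufficient lymphomas (log2 fold change 0.84 ± 0.16 SE, edgeR adjusted p = 0.0016). The histone binding subunits Rbbp7 (0.84) and Rbbp4 (0.29) and Sap18 (0.34) rose with it (edgeR adjusted p = 0.00518, 0.0072 and 0.0139). Of 14 genes of PRC1.6, the complex of MGA, 1 rose, 0 fell and 13 did not pass (median 0.17). It was Tfdp1, the partner of E2F proteins (0.33 ± 0.12 SE, edgeR adjusted p = 0.0484), which no longer passed without any 1 of 13 libraries, nor without sufficient 9, 10 and 11 (edgeR adjusted p = 0.0683), where 0 of the 14 passed. The next by p were Pcgf6 (0.32, edgeR adjusted p = 0.0569), Yaf2 (-0.40, edgeR adjusted p = 0.102) and Hdac1 (0.16, edgeR adjusted p = 0.107).

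Of 40 genes known to be induced by MYC, 9 rose in deficient lymphomas, 0 fell and 31 did not pass. Their median log2 fold change was 0.20 against -0.01 over all genes, of which 10.6% rose and 11.7% fell. The 4 with the smallest p were Impdh2 (0.41 ± 0.08 SE) and Umps (0.47 ± 0.13 SE), enzymes of purine and pyrimidine synthesis, Gnl3 (0.43 ± 0.13 SE), a nucleolar GTPase, and Eif4a1 (0.33 ± 0.10 SE), a translation initiation helicase (edgeR adjusted p = 0.0014, 0.011, 0.0228 and 0.0229). The list also differed between runs, with 0 of 40 higher and 21 lower in run 2 (median -0.43). Over all genes, 18.6% were higher and 17.7% lower in run 2. The count of 9 fell to 1 without the run term, to 0 in run 1 alone and to 2 without sufficient 9, 10 and 11 (Gnl3 and Eif4a1 were among those lost, both with an edgeR adjusted p of 0.0541), and in run 2 alone it was 2 higher and 1 lower. It was 4 without deficient 4, without deficient 5 or without sufficient 10, and 5 without deficient 3.

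Of 12 genes known to be repressed by MYC, 3 fell in deficient lymphomas, 1 rose and 8 did not pass (median -0.50). Over all genes, 11.7% fell and 10.6% rose. Btg1, an antiproliferative gene, averaged 132 CPM ± 69.1 (SD, n = 11) in deficient and 402 CPM ± 186 (SD, n = 12) in sufficient lymphomas (log2 fold change -1.61 ± 0.28 SE, edgeR adjusted p = 0.000745). Hexim1, an inhibitor of the elongation factor P-TEFb, fell by 0.56 on the log2 scale, and Cdkn1b, the cell cycle inhibitor p27, fell by 0.57 (edgeR adjusted p = 0.00862 and 0.0384). Cdkn1a, the cell cycle inhibitor p21 and also a p53 target, rose by 1.15 ± 0.40 SE (edgeR adjusted p = 0.0416). Cdkn1a and Cdkn1b no longer passed without sufficient 9, 10 and 11, nor without any 1 of 12 libraries each. The count was 2, both lower, without sufficient 9, 10 and 11 and without sufficient 6, 7 or 10 alone. Of 5 measured targets of MLX and MondoA of 6 listed, 1 fell, 0 rose and 4 did not pass (median -0.46). It was Txnip, a brake on glucose uptake (-0.61 ± 0.16 SE, edgeR adjusted p = 0.00963), at 133 CPM ± 39.9 (SD, n = 11) in deficient and 193 CPM ± 66.8 (SD, n = 12) in sufficient lymphomas. The other targets nearest to passing were Pfkfb3 (-0.49, edgeR adjusted p = 0.101), Arrdc3 (-0.46, edgeR adjusted p = 0.159) and Hk2 (0.31, edgeR adjusted p = 0.340). Without deficient 8, Pfkfb3 passed as well (edgeR adjusted p = 0.0287).

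Of 16 genes listed as regulators of Myc in germinal centre B cells, 3 rose, 1 fell and 12 did not pass (median 0.09). Over all genes, 10.6% rose and 11.7% fell. No action on Myc is claimed here for Ccnd3 or Mef2b, the 2 listed genes with the smallest p. Ccnd3, the cyclin of dividing dark zone cells, averaged 247 CPM ± 143 (SD, n = 11) in deficient and 93.8 CPM ± 37.9 (SD, n = 12) in sufficient lymphomas (log2 fold change 1.46 ± 0.27 SE, edgeR adjusted p = 0.00107). Mef2b, which activates Bcl6 in the germinal centre, rose by 1.17 ± 0.24 SE (edgeR adjusted p = 0.00209). Tcf3 rose by 0.35 and Stat3 fell by 0.45 on the log2 scale (edgeR adjusted p = 0.0343 and 0.0452), and both lost the call without sufficient 9, 10 and 11 (edgeR adjusted p = 0.137 and 0.105). Tcf3 also lost it without any 1 of 9 libraries and Stat3 without any 1 of 14. The count of 4 listed genes was 2 without deficient 2, 4, 5 or 10 or sufficient 8, 10, 11 or 12 alone. It was 2 to 5 over all single omissions. Of 38 proliferation genes, 31 rose, 0 fell and 7 did not pass (median 0.53), led by Mki67 (1.03 ± 0.18 SE), Bub1b (0.96 ± 0.18 SE), Ccnb2 (0.71 ± 0.14 SE) and Mybl2 (0.80 ± 0.16 SE). The summed level of these 38 genes was 8258 to 13262 CPM in deficient and 3783 to 9046 CPM in sufficient lymphomas. Its mean was 10633 CPM in deficient and 7436 CPM in sufficient lymphomas, while that of Mxd1 was lower in deficient ones. How the sum and Mxd1 relate from lymphoma to lymphoma was not tested, nor was its part in the Mxd1 difference. Without the run term 17 of the 38 rose, and 0 did in run 1 alone and 6 in run 2 alone. The count was 23 without sufficient 9, 10 and 11. The list also differed between runs, with 3 of the 38 higher and 22 lower in run 2 (median -0.41). Over all genes, 18.6% were higher and 17.7% lower in run 2. Mki67 was among those higher in run 2 (1.13, edgeR adjusted p = 2.81e-05).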

How the data were processed

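RNA of 12 T cell sufficient and 11 T cell deficient lymphomas was made into TruSeq libraries, per the labels' protocols. The authors deposited raw counts per gene for 23 libraries, CPM beside them, and a comparison with log2 fold changes and p-values. The submitters' processing notes name mm10, GRCm38 and limma. Aligner, counting tool and strand setting: not given in the sources used here. The second library of sufficient lymphoma 1, in run 2, was not analysed here separately. The table does not say whether that lymphoma's column, the deepest, holds it. The column of sufficient lymphoma 4 was matched by its number, as its suffix differs from the label. For 19 genes identifier and name differ.

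Counts were tested with edgeR 4.0.16 (R 4.3.3): filterByExpr removed 120 of 11140 genes, TMM scaling and robust quasi-likelihood fits with terms for run and group followed, with Benjamini-Hochberg adjustment over all genes tested. The SE is the log2 fold change over the square root of F. CPM are TMM-scaled, and log2 CPM use a prior count of 2. Depth sets the precision of low genes: 3 counts are worth 0.0980 to 0.396 CPM per library, for counting error only. Lengths and positions are from GENCODE on GRCm38, promoters from RefSeq. As alternatives, DESeq2 1.42.0 and limma-voom 3.58.1, another scaling, no filter, a threshold of 0.01, no run term, each run alone, single libraries omitted and a replicate block were run. Code was tested on simulated counts.

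The members and the 10 pathway lists (176 genes, 171 measured) and 7 marker lists were chosen with earlier results of these data known, so no list is independent support. Named were all members, up to 4 genes with the smallest p of each list, and for Myc and Mxd1 the 5 highest and 3 lowest genes in Spearman correlation. A listed B cell marker is not reported here.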

Additional observations from a re-analysis of the deposited data

Results flagged for a closer look

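Within each group and run of 4 to 10 libraries, the highest and lowest library of each measured member was set against the spread of the others. Of 36 groups tested, 2 held a library far from the rest, and chance gives about 1 in 20. In deficient 6 of run 2, Mga stood at 315.8 CPM, with 200.8 CPM in the next highest of the 6 deficient libraries of that run. The same library had the lowest Myc and the highest Mxd4. In sufficient 11 of run 2, Max stood at 188.6 CPM, with 140.8 CPM in the next highest of the 5 sufficient libraries of that run. Sufficient 11 is among the 3 libraries with both Xist and Ddx3y, and it also had the highest Mxd1, at 39.9 CPM. Without it the log2 fold change of Max was -0.10 in place of -0.16, and neither passed the test.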

How the results depend on the processing

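The call of Mxd1 was kept under every alternative that used both runs, and its log2 fold change stayed between -1.42 and -1.22. In run 1 alone 0 members passed. With both runs and single libraries left out, 1 to 2 did. Over all genes 2448 passed, against 1027 at an adjusted p under 0.01, 0 in run 1 alone, 1359 in run 2 alone, 1470 without sufficient 9, 10 and 11, and 1945 to 2783 with single libraries left out. The log2 fold change of Myc lay near 0 and changed sign: it was -0.0044 with limma-voom, -0.18 in run 2 alone and -0.040 to 0.085 with single libraries left out. That of Mga did as well, at -0.0081 with limma-voom, -0.041 with the replicate block, -0.0057 in run 2 alone and -0.063 to 0.044 with single libraries left out. Mxi1 was 0.017 without sufficient 9, 10 and 11. Without the run term 1 cofactor, 0 PRC1.6 genes and 0 targets of MLX and MondoA passed, and with total counts 5 cofactors and 3 PRC1.6 genes did. The cause of these shifts was not tested. No scaling moved the median of all genes by more than 0.1.

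The replicate numbers of the labels are shared between the groups, but the labels do not say that they pair the lymphomas. Of 11 pairs, 4 had deviations correlated above 0.1 (-0.25 to 0.23), and 2 correlated best with their own number. Most shared numbers lie in opposite runs, so these values cannot decide whether lymphomas are paired. With the replicate number as a block, 1832 genes and 1 member (Mxd1, -1.38) passed, and Myc was 0.015. For run 3 members passed, and 0 for the interaction and for the level of Myc. Also passing between the groups were 3 genes induced by MYC and 2 genes listed as regulators of Myc. The genes called for the level of Myc ran from 0 to 49 with single libraries left out, and were 251 with DESeq2 and 148 with limma-voom. The lowest level among members, that of Mxi1, rests on 76 counts.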

Other observations

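Beside the monocyte, T cell and B cell lists, 4 other marker lists were read for the same comparison. Over all genes, 10.6% rose and 11.7% fell in deficient lymphomas. Of 4 measured plasma cell markers of 5 listed, 1 fell (Sdc1, log2 fold change -2.01 ± 0.63 SE, edgeR adjusted p = 0.0268), with summed levels of 309 to 1396 CPM in deficient and 309 to 1890 CPM in sufficient lymphomas. Sdc1 alone averaged 6.93 CPM in deficient and 28.0 CPM in sufficient lymphomas, against mean sums of 668 and 769 CPM. Of 2 measured stromal markers of 4 listed, 1 fell (Col1a1, -4.96 ± 0.67 SE, edgeR adjusted p = 0.000151). Their sums were 13.9 to 145 CPM in deficient and 19.8 to 250 CPM in sufficient lymphomas. Most of each mean sum was Pecam1, at 67.0 CPM in deficient and 98.2 CPM in sufficient lymphomas, which did not pass (edgeR adjusted p = 0.358). Col1a1 was low, at a mean of 0.223 CPM in deficient and 7.49 CPM in sufficient lymphomas. Its deficient mean lay between 0.0980 and 0.396 CPM, the range given above for counting error. Col1a1 was at 0 in 1 deficient library and in 0 sufficient ones. Of 2 measured NK cell markers of 5 listed, 1 rose (Klrb1c, 2.18 ± 0.63 SE, edgeR adjusted p = 0.0178), with sums of 1.02 to 12.2 CPM in deficient and 0.198 to 12.6 CPM in sufficient lymphomas. Klrb1c was low, at a mean of 2.71 CPM in deficient and 0.497 CPM in sufficient lymphomas. It was at 0 in 3 sufficient libraries and in 0 deficient ones. Of 4 measured erythroid markers of 5 listed, 0 passed, with sums of 1.47 to 42.1 CPM in deficient and 1.12 to 65.2 CPM in sufficient lymphomas. Their part in the members' levels was not tested.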
